A study of Homo sapiens with 13 samples.

Results

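The genes described here are 49 interferon-stimulated genes, chosen by name, not by a rule on their values, from the 23637 gene symbols of the RNA tables. Earlier results of these data were known when they were chosen. All 49 were listed in the RNA tables, and 45 had a listed peak of at least 1 histone mark at their start. They were read in TE-7, an established human cell line labelled as esophageal epithelial, which is a single line grown in medium with fetal calf serum. The cells were either control cells or cells given IL-13, a type 2 cytokine of allergic inflammation, at 100 ng/ml. RNA was sequenced in both at 2, 6 and 24 hr, and chromatin immunoprecipitation for H3K4me3, H3K9Ac and H3K27Ac, which are marks of active promoters and, for H3K27Ac, enhancers, was done in both at 6 hr. Each of these 12 libraries is the only one of its group, so single differences have no replicate check. The RNA unit is RPKM, reads scaled to the length of the gene and to all mapped reads. In such bulk RNA, fewer expressing cells and less RNA per cell cannot be told apart.

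Interferons are secreted cytokines that make cells resist viruses. Type I and type III interferons act through JAK1 and TYK2 on a complex that includes STAT2 and IRF9 and binds the interferon-stimulated response element (ISRE), while genes that answer interferon gamma often carry a gamma-activated site (GAS). Cells hold the products of these genes at a low level and raise them after infection: RNA sensors, enzymes that block translation or degrade RNA, GTPases and membrane proteins that stop viral entry, and the ubiquitin-like protein ISG15. IL-13 signals mainly through STAT6, and epithelial cells of the esophagus are among its targets.

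Promoter sequence was matched by symbol in RefSeq windows of GRCh38.p14, 250 bases before to 50 after each gene start, for 40 of the 49 genes. DHX58, IRF7, IFIT2, MX2, OAS2, OASL, USP18, IFITM2 and TRIM22 were not matched. The core of the ISRE was searched as TTTCNNTTTC on both strands, with overlapping matches kept, and was found in 26 of the 40 (65%), against 4.38% of 27305 genes in the same table. Windows of a gene can overlap, and counted once by genome position the 47 matches began at positions -196 to 11 relative to the nearer start, with a median of -93, and 40 of them began within the 150 bases before the start. A palindrome of the GAS type, TTCNNNGAA, was found in 11 of 40 (27.5%), against 9.38% of all genes. The spacing preferred by STAT6, TTCNNNNGAA, was found in 4 of 40 (10%), against 7.80%. A match is a run of letters and no evidence of binding. The 250 bases before the start are shown for 6 genes whose RNA is described below. IRF1 (chr5:132490774-132491023, minus strand) had the largest ratios with IL-13 at 2 and 6 hr. RSAD2 (chr2:6877527-6877776, plus strand) and IFIH1 (chr2:162318685-162318934, minus strand) were among the genes with the smallest p between 6 and 24 hr, and DDX60 (chr4:168318753-168319002, minus strand) had one of the largest ratios with IL-13 at 6 hr. ISG15 (chr1:1013247-1013496, plus strand) and IFIT1 (chr10:89392373-89392622, plus strand) are shown for their closely spaced matches and because they encode classical effectors. Each is written 5′ to 3′ on the strand of the gene; capitals mark the GAS type palindrome in IRF1 and ISRE core matches, on either strand, in the others. IFIT1, ISG15 and IFIH1 hold adjoining or overlapping ISRE cores, and no ISRE core was found in the IRF1 window.
IRF1: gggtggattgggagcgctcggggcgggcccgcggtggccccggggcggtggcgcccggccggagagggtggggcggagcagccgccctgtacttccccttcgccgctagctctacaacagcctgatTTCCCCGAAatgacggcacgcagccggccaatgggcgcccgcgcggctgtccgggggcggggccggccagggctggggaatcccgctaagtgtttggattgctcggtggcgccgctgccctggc
IFIT1: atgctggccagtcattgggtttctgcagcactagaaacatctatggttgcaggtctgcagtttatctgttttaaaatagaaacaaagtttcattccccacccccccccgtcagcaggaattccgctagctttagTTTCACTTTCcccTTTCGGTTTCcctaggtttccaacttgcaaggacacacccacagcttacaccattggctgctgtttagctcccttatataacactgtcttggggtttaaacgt
ISG15: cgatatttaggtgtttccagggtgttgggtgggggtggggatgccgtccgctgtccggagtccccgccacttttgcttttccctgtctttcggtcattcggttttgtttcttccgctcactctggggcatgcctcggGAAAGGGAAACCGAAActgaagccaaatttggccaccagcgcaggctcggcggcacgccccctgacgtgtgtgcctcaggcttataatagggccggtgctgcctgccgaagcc
RSAD2: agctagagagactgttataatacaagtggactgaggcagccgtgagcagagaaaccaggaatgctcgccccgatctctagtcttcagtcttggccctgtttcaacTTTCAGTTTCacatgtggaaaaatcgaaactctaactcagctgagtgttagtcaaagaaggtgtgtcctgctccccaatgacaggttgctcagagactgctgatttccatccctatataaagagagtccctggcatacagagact
DDX60: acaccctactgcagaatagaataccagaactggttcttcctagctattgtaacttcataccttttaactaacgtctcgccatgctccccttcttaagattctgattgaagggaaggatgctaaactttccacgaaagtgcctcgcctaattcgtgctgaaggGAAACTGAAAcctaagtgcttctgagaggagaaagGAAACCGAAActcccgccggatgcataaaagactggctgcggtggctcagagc
IFIH1: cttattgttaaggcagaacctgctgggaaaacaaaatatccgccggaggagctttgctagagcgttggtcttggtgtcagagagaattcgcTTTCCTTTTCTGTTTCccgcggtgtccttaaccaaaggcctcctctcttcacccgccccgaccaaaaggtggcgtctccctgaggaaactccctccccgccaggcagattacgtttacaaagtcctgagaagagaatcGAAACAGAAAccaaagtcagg

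**Figure D1:**
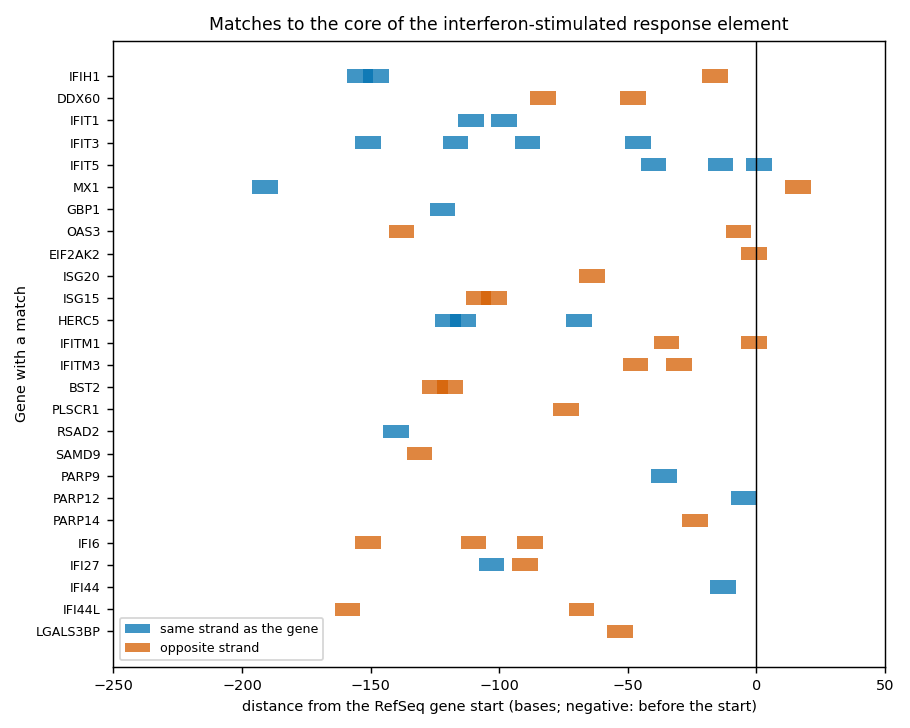
Positions of ISRE core matches (boxes) in the 26 genes that had one; the horizontal axis is the distance in bases from the RefSeq gene start and colour gives the strand. Of 47 matches, each counted once by genome position and measured from the nearer start, 40 begin within the 150 bases before the start.

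Before the values, 3 facts on the libraries bear on them. Depth, read from the steps between low values, was 29.1 to 42.6 megareads at 2 and 6 hr, each time as a pair of read sets, and 13.6 to 14.02 megareads at 24 hr as 1 set. The controls at 2 and 6 hr had 359 identical values above 0 (no other pair of libraries had any) and a set of 15.7 megareads in common, whose effect on their difference was not tested. The column headers of the 24 hr libraries also carry a prefix that the others lack, so time and the making of the libraries cannot be told apart between 6 and 24 hr. Of 12 epithelial markers, 12 reached 1 RPKM in every library. The control at 2 hr stood apart by a list of 10 brain markers, which summed to 24.3 RPKM there, with 7 at 1 RPKM or more, and to 6.25 to 8.01 elsewhere, with 1 (MBP). Of 9 leukocyte markers, 4 plasmacytoid dendritic cell markers, 4 endothelial and 5 fibroblast markers, the sums were 2.73 to 6.82, 1.25 to 1.85, 0.792 to 4.27 and 2.11 to 5.35 RPKM. FCGR3A, CLEC4C and LILRA4 were listed at 0 in all 6 libraries. In each library 1 plasmacytoid dendritic cell marker and 1 fibroblast marker reached 1 RPKM. Of the leukocyte markers 2 did so in the control at 2 hr and 1 in each other library. Of the endothelial markers 1 did so, in IL-13 cells at 24 hr alone. The part of other cells in the results below was not tested.

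TE-7 cells without IL-13 already transcribed most of the list. In the control libraries the median member stood at 14.3 to 41.1 RPKM, against medians of 0.978 to 1.35 over all gene symbols. Of the 49 genes, 47 reached 1 RPKM in at least 1 of the 6 libraries, as did 12884 of all 23637 gene symbols. The exceptions were IRF7, the transcription factor that amplifies interferon production, at 0.0813 to 0.116 RPKM at 2 and 6 hr and listed at 0 at 24 hr, and SAMD9L, a restriction factor, at 0.138 to 0.460 RPKM. SAMD9, which lies beside SAMD9L on chromosome 7 (92728826 to 92747336, hg19), read 16.8 to 51.2 RPKM.

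On the length-scaled RPKM levels the list was led by IFITM3, ISG15 and LGALS3BP. IFITM3, which blocks virus entry from endosomes, was the highest at 636 RPKM in control and 615 in IL-13 cells at 2 hr, 545 and 530 at 6 hr, and 736 and 695 at 24 hr. ISG15, the ubiquitin-like modifier, followed with 369 and 359, 245 and 213, and 679 and 544 RPKM, in the same order of libraries. LGALS3BP, a secreted glycoprotein, read 239 and 243, 229.2 and 228.5, and 292 and 295 RPKM. These genes were high in every library, and control and IL-13 libraries of a time lay close together.

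BST2, or tetherin, which holds budding virions on the membrane, read 210 and 201, 231 and 223, and 293 and 240 RPKM. IFITM1 read 219 and 210, 158 and 151, and 299 and 256 RPKM, and IFITM2, a relative of IFITM3, read 99.0 and 94.8, 98.4 and 94.3, and 115 and 93.3 RPKM. IL-13 libraries were the lower of the pair at all 3 times for ISG15, IFITM1, IFITM2, IFITM3, BST2 and IFI27, the only 6 of the 49 with that pattern (12.2%, against 19.9% of 12884 genes with 1 RPKM in any library). IFITM1, IFITM2 and IFITM3 are near-identical neighbours on chromosome 11 (308107 to 320914, hg19), and the split of reads between them is uncertain. The lowest members above 1 RPKM were GBP1, a guanylate-binding GTPase (0.882 to 3.23), XAF1, a pro-apoptotic protein (0.288 to 2.37), and IFI44L (1.12 to 3.65).

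**Figure D2:**
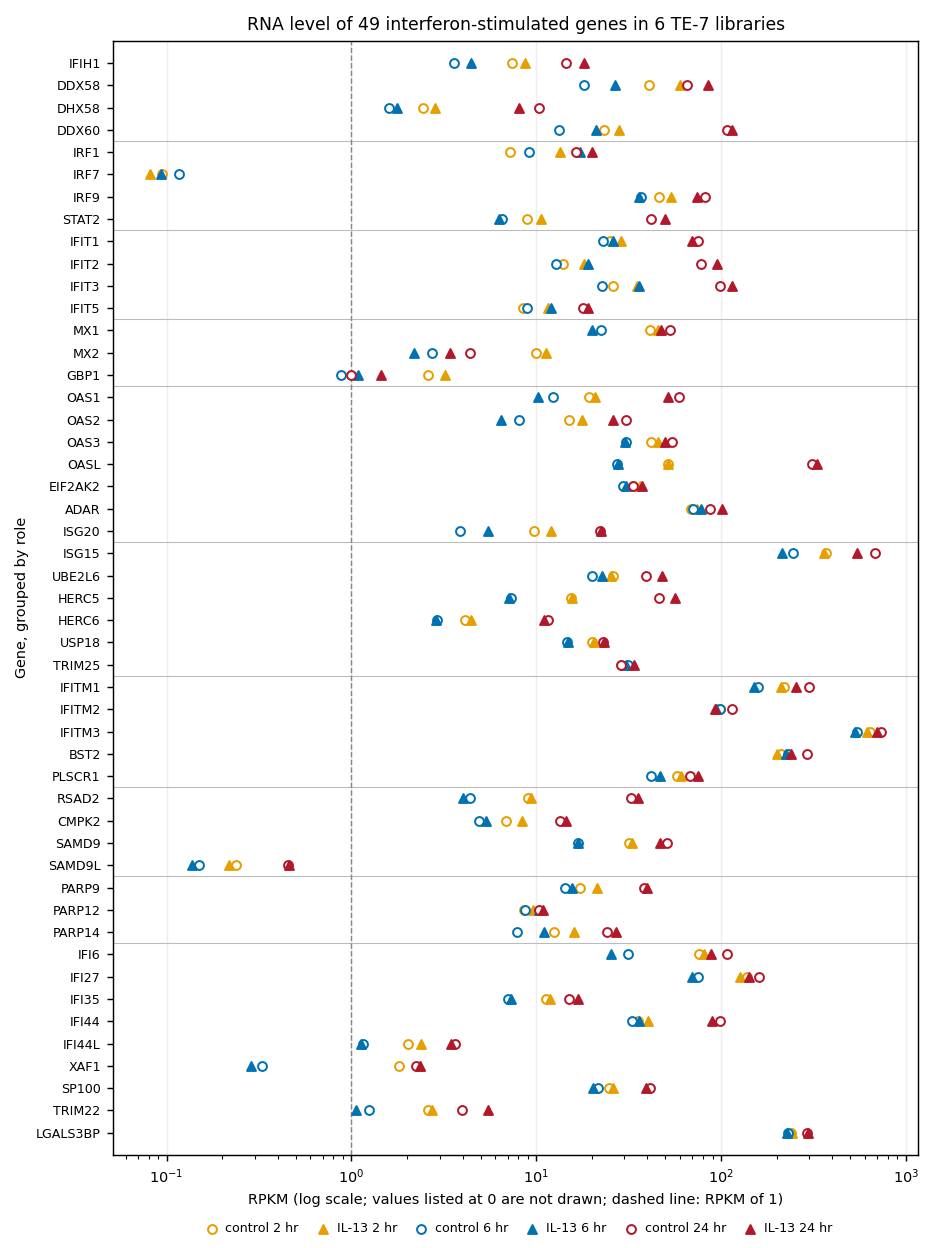
RPKM (log scale) of the 49 genes, grouped by role, in each of the 6 RNA libraries; open circles are control and triangles IL-13 libraries, and colour is the time. Most genes have their 6 hr values (blue) at the left and their 24 hr values (red) at the right, with control and IL-13 symbols side by side.

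The first comparison asked whether IL-13 changed these genes. No member reached a 2-fold difference with at least 1 RPKM at any time. The largest ratios were those of IRF1, a transcription factor induced by interferon gamma and other cytokines, at 1.86-fold at 2 hr and 1.89-fold at 6 hr. The RNA sensor DDX58 (RIG-I) and the IFIT genes IFIT2, IFIT3 and IFIT5 were 1.30 to 1.58-fold higher at 2 and 6 hr. Highly transcribed effectors such as ISG15 and the IFITM genes were level or lower with IL-13.

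At 2 hr, 0 of 47 genes with enough RNA were 2-fold higher and 0 lower, where 0.658% and 0.342% of 12005 genes were. Their median log2 ratio, on log2(RPKM + 0.1), was 0.14 against 0.00 over all genes, and 40 of the 47 lay above 0, against 50.8% of all genes. At 6 hr, 0 of 46 were higher and 0 lower (0.753% and 0.318% of 11958 genes), the median was 0.02 against 0.00, and 24 of 46 lay above 0 (48.5% of all). At 24 hr, 0 of 47 were higher and 0 lower (0.886% and 1.27% of 12524 genes), the median was 0.06 against 0.02, and 27 of 47 lay above 0 (54.6% of all). The counts of 0 are close to these shares and are no result about the members. The shift at 2 hr is a contrast with the control library that holds brain markers, whose part in it was not tested. At a limit of 1.5-fold, the genes past it on the higher side were IRF1 at 2 hr (1.57% of all genes) and IRF1, DDX60 and IFIT3 at 6 hr (1.74%), with none at 24 hr (2.51%).

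IRF1 (chromosome 5, 131817301 to 131826465, minus strand, hg19) read 7.204 RPKM in control and 13.4 in IL-13 cells at 2 hr, 9.14 and 17.3 at 6 hr, and 16.4 and 20.0 at 24 hr. The IL-13 library was the higher at each time, and the 24 hr control lay between the IL-13 values of 2 and 6 hr. The log2 ratios were 0.88, 0.91 and 0.28. In the authors' deposited table IRF1 at 6 hr had a log2 ratio of 0.92 with an adjusted p of 0.000266, and it was the only member with an adjusted p under 0.05 at any time. Of 23637 genes in the authors' deposited table, 0.317% were higher and 0.0338% lower by that threshold at 6 hr, 0.00846% and 0.00423% at 2 hr, and 0.224% and 0.368% at 24 hr. In the authors' deposited table the adjusted p of IRF1 was 1 at 2 hr and at 24 hr.

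Among the 4 RNA sensors, DDX58 (chromosome 9, 32455300 to 32526322, minus strand) read 40.5 and 60.2 RPKM at 2 hr, 18.05 and 26.6 at 6 hr, and 65.3 and 84.6 at 24 hr, control first. IFIH1, or MDA5, which senses long double-stranded RNA (chromosome 2, 163123589 to 163175218, minus strand), read 7.35 and 8.67, 3.61 and 4.45, and 14.5 and 18.1 RPKM. Both were higher with IL-13 at each time, by 1.48, 1.47 and 1.30-fold for DDX58 and by 1.18, 1.23 and 1.25-fold for IFIH1. DDX60, a helicase that aids RIG-I, read 23.4 and 28.2, 13.2 and 21.1, and 108 and 114 RPKM, with its largest ratio, 1.60-fold, at 6 hr. DHX58, or LGP2, a regulator of the other sensors, read 2.44 and 2.85, 1.61 and 1.76, and 10.4 and 8.04 RPKM, and its ratio lay above 1 at 2 and 6 hr and below it at 24 hr, at 0.774.

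The 4 IFIT genes lie together on chromosome 10 (91061706 to 91180759, hg19). IFIT2 (plus strand) read 13.96 and 18.1 RPKM at 2 hr, 12.9 and 19.01 at 6 hr, and 77.95 and 95.01 at 24 hr. IFIT3 read 26.0 and 34.9, 22.8 and 35.9, and 98.4 and 115 RPKM, and IFIT5 read 8.49 and 11.6, 8.895 and 12.04, and 17.9 and 19.1 RPKM. In these 3 genes the IL-13 library was the higher at all times. That pattern was found in 19 of the 49 (38.8%, against 22.5% of 12884 genes with 1 RPKM in any library). The controls at 2 and 6 hr have identical values and may not be independent. IFIT1, the neighbour that binds RNA lacking a methylated cap, read 25.0 and 28.9, 23.0 and 26.2, and 74.7 and 69.6 RPKM, with ratios of 1.15, 1.14 and 0.932.

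Of the 2',5'-oligoadenylate synthetases, which make the activator of RNase L, OAS1 and OAS2 were a little higher with IL-13 at 2 hr and lower later. OAS1 read 19.4 and 20.7, 12.3 and 10.17, and 59.2 and 51.9 RPKM, and OAS2 read 15.1 and 17.6, 8.04 and 6.46, and 30.4 and 26.1 RPKM. The GTPase MX2 (10.03 and 11.3, 2.75 and 2.17, 4.38 and 3.42 RPKM) had the same order, as did IFI6, an inhibitor of apoptosis (76.5 and 80.5, 31.3 and 25.3, 108 and 88.2 RPKM). At 24 hr the largest ratios were those of GBP1 (0.991 and 1.45 RPKM), 1.46-fold, and TRIM22, an E3 ligase (3.97 and 5.45 RPKM), 1.37-fold. GBP1 was also the higher with IL-13 at 2 hr (2.604 and 3.23 RPKM) and 6 hr (0.882 and 1.09), while TRIM22 was level or lower (2.58 and 2.74, then 1.25 and 1.06 RPKM). IFI27, a mitochondrial protein, had the lowest ratio at 2 hr among members with at least 1 RPKM, 0.921, from 138 and 127 RPKM.

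**Figure D3:**
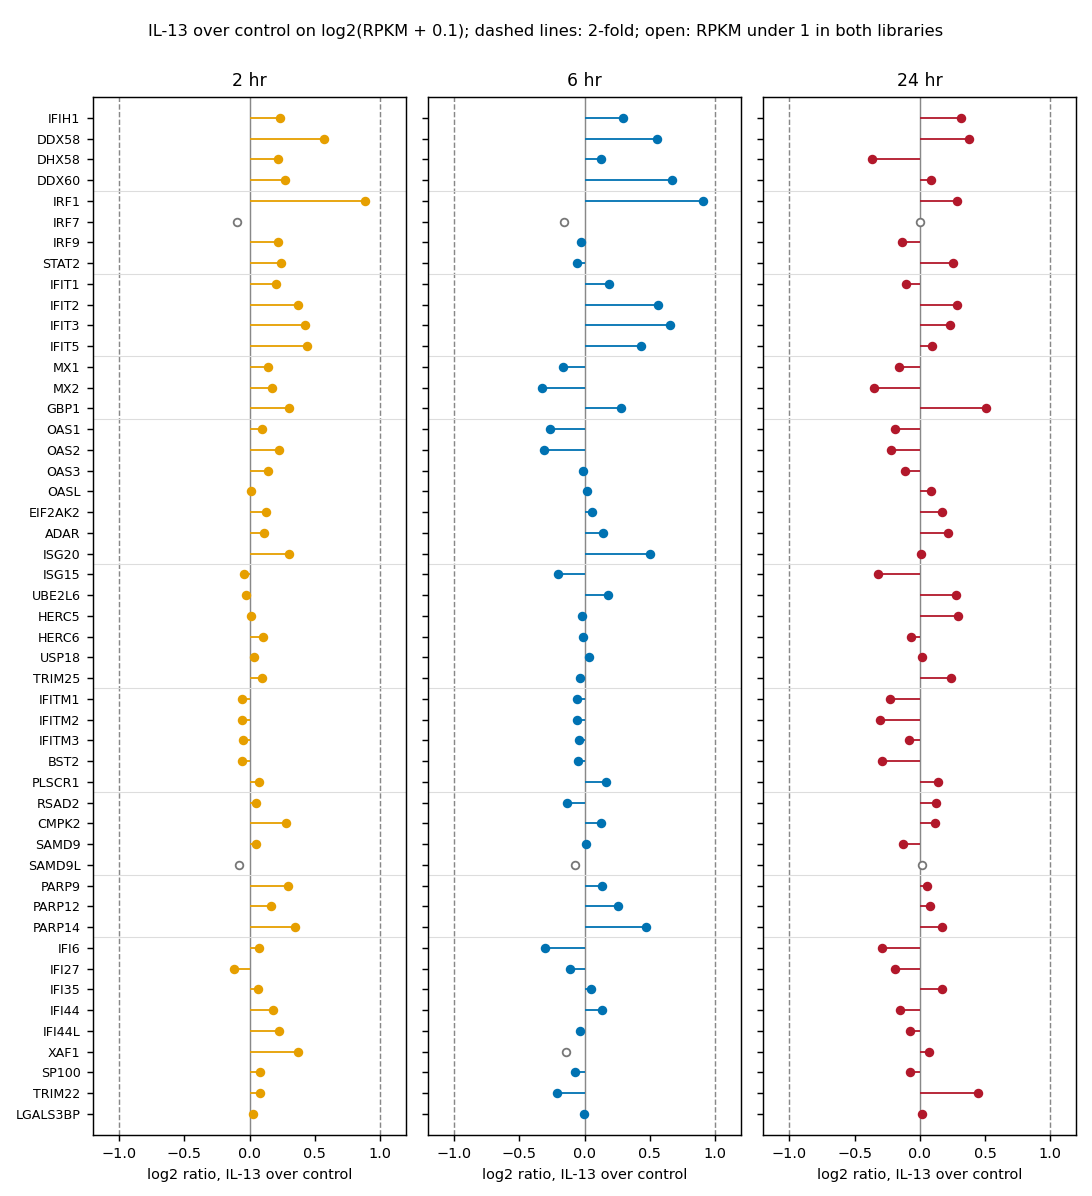
Log2 ratio of IL-13 over control on log2(RPKM + 0.1) for the 49 genes at each time; dashed lines mark 2-fold and open circles genes under 1 RPKM in both libraries. IRF1 reaches 0.88 and 0.91 at 2 and 6 hr, no gene passes a dashed line, and most genes lie right of 0 at 2 hr.

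The effect common to the 3 times was tested with limma, in which time and treatment were terms and the 3 times stood in for replicates. No gene of 11953, and so 0 of 47 members, passed an adjusted p under 0.05 in either direction (percent called 0); 12 members, 11 of them higher, had an unadjusted p under 0.05 in limma, against 16.9% of all genes in either direction and 10% higher. With limma-trend 0 members passed as well. The median member effect was 0.09 log2, against 0.01 over all genes. DDX58 had the smallest adjusted p in limma, 0.163, at 0.50 ± 0.06 log2 (SE, 6 libraries), higher at 3 of 3 times. IFIH1 (0.28 ± 0.05) and IFIT2 (0.41 ± 0.07) both had a limma adjusted p of 0.177, and GBP1 (0.36 ± 0.07) one of 0.179. IRF1 (0.69 ± 0.15) and IFIT3 (0.43 ± 0.09) reached a limma adjusted p of 0.200, and all were higher with IL-13 at 3 of 3 times. These genes thus did not pass the test, and 19 of the 49 were higher with IL-13 at all 3 times (38.8%, against 22.5% of 12884 genes with 1 RPKM in any library). The controls at 2 and 6 hr, which have identical values, may not be independent.

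Other genes of the interferon system were read from a list of 90, of which 89 were in the tables. With IL-13, SOCS1, a feedback inhibitor of JAK kinases, was 2-fold higher at all 3 times, from 1.99 to 9.42 RPKM at 2 hr, 1.57 to 6.87 at 6 hr and 2.24 to 5.04 at 24 hr. RTP4, an interferon-stimulated chaperone, passed the limit at 24 hr alone, from 0.583 to 1.48 RPKM, and no gene of the list was 2-fold lower at any time. In the limma fit 0 of 64 tested passed for IL-13, where 0 of all 11953 genes did. APOL6, an apolipoprotein L, was higher at 3 of 3 times, at 5.07 and 8.62, 3.41 and 6.33, and 12.3 and 17.6 RPKM. IL29, the type III interferon lambda 1, was the highest ligand and the only one of 10 to reach 1 RPKM, at 0.581 and 0.525, 0.0754 and 0.170, and 1.29 and 1.58 RPKM. IFNB1, interferon beta, was listed at 0 in all libraries but the 24 hr control, at 0.088, and IFNA2 and IFNW1 were listed at 0 in every library. The 6 receptor chains were all transcribed, from 1.72 RPKM for IL28RA to 41.8 for IFNGR2.

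The larger differences ran with time, in control and IL-13 cells alike. Between 6 and 24 hr, 42 of 47 members tested rose and none fell, where 46.6% of all genes rose and 26.1% fell. With each library centred on its median, 36 of the 47 rose. By the limma difference on log2(RPKM + 0.1), the steepest were OASL, an OAS-like inhibitor of viral replication, RSAD2 (viperin, which makes a chain-terminating nucleotide), STAT2, HERC5, the ligase that attaches ISG15, and DDX60, all 5.42 to 11.97-fold higher at 24 hr. Between 2 and 6 hr most members were lower, led by XAF1 and MX2. The lowest time was 6 hr for 42 of 49 genes in control and 39 of 49 in IL-13 cells, against 27.8% and 28.6% of all genes.

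The limma contrast of 24 against 6 hr, with control and IL-13 libraries standing in for replicates of a time, called 42 of 47 members higher and 0 lower (adjusted p, threshold 0.05). Of all 11953 genes, 46.6% were called higher and 26.1% lower. The median member difference was 1.41 log2 and that of all genes 0.18. After each library was centred on its median, which removes that general shift, 36 of 47 members were called higher and 0 lower, with 3748 genes higher and 4820 lower. The 5 members that were not called were IRF1 (0.53 log2, limma adjusted p 0.0545, and 0.0323 to 0.0378 with limma-trend, a pseudocount of 1 or a minimum of 5 RPKM), BST2 (0.22 log2, limma adjusted p 0.0707, and 0.038 with limma-trend or 0.0479 with a minimum of 5 RPKM), PARP12, IFITM2 and TRIM25. With centring 6 members were no longer called: EIF2AK2 (-0.02 log2, limma adjusted p 0.835), ADAR (0.08), GBP1 (0.00), IFITM3 (0.15, limma adjusted p 0.0578), LGALS3BP (0.10) and MX2 (0.38). Of the 5 not called before, BST2, IFITM2, PARP12 and TRIM25 changed sign with centring, to -0.04, -0.15, -0.10 and -0.26 log2. GBP1 also lost its call in limma with a pseudocount of 1 (adjusted p 0.0675), no filter (0.135), limma-trend (0.141) and without the 2 hr pair (0.0755), MX2 with no filter (0.128) and EIF2AK2 without the 2 hr pair (0.0632).

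By the 2-fold rule within a treatment, 30 of 46 members were higher at 24 than at 6 hr in control cells (16.2% of all genes) and 30 of 47 in IL-13 cells (14.9%), and 0 were lower in either (6.09% and 5.01%). The 24 hr values of 40 of the 49 lay above all 4 earlier values, against 49.9% of all genes, so the groups of libraries do not overlap in these genes. Depth and the make-up of the libraries differed in the same way between these times, and their part in the result was not tested.

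OASL (chromosome 12, 121458095 to 121477045, minus strand) read 51.6 and 51.9 RPKM at 2 hr, 27.3 and 27.7 at 6 hr, and 312 and 332 at 24 hr, control first. The pair at 24 hr stood far above the rest, 11.4 and 11.97-fold over 6 hr, and the limma difference was 3.54 ± 0.06 log2 (adjusted p 0.000364). RSAD2 (chromosome 2, 7017796 to 7038363, plus strand) read 9.03 and 9.37, 4.39 and 3.995, and 32.7 and 35.6 RPKM, a limma difference of 3.0 ± 0.08 (adjusted p 0.00039). CMPK2, its neighbour, a mitochondrial nucleotide kinase, had the same order of times at 6.90 and 8.398, 4.88 and 5.32, and 13.4 and 14.5 RPKM.

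Of the ISG15 pathway, HERC5 read 15.5 and 15.6, 7.27 and 7.16, and 46.2 and 56.6 RPKM, and its neighbour HERC6, a related ligase, 4.13 and 4.45, 2.91 and 2.88, and 11.6 and 11.04 RPKM. Both had 24 hr values above every earlier one, and rose by 2.81 and 1.93 log2 in limma (adjusted p 0.000393 for each). Of the pathway's 6 genes 5 rose, against 46.6% of all genes. TRIM25, a ligase that modifies RIG-I, was flat at 28.6 to 33.8 RPKM over all 6 libraries. USP18, which removes ISG15 and damps the type I receptor, rose by 0.65 log2, from 14.6 and 14.9 to 23.1 and 23.3 RPKM.

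STAT2, a transcription factor of the type I pathway, read 8.95 and 10.6, 6.52 and 6.25, and 41.7 and 49.7 RPKM. STAT2 rose by 2.81 log2 from 6 to 24 hr in limma, and IRF9, which binds DNA together with it, by 1.1 (36.7 and 35.9 to 81.7 and 74.3 RPKM). All 4 RNA sensors rose, IFIH1 by 1.99 and DDX58 by 1.76 log2, and all 4 IFIT genes, IFIT2 the most at 2.45. All 7 of the OAS, PKR and RNA editing or decay group rose, from 0.25 log2 for EIF2AK2, the kinase PKR, to OASL, but with centring EIF2AK2 turned to -0.02 and ADAR to 0.08, neither called. Against 46.6% of all genes, 3 of the 5 membrane restriction factors rose, by 0.41 log2 for IFITM3, whose call was lost with centring, to 0.84 for IFITM1, of the 3 PARPs, ADP-ribosyltransferases, 2 rose, and of the 9 other genes 9 rose.

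Members not yet given mostly had their highest values at 24 hr too. MX1, a GTPase that traps viral nucleocapsids, read 41.2 and 45.4, 22.5 and 19.97, and 52.9 and 47.4 RPKM, and ISG20 read 9.73 and 11.98, 3.85 and 5.48, and 22.2 and 22.3 RPKM. PARP14 read 12.5 and 15.9, 7.91 and 11.002, and 24.01 and 27.03 RPKM, higher with IL-13 at each time. IFI44 read 35.6 and 40.4, 32.9 and 36.1, and 99.3 and 89.5 RPKM, so its level moved little from 2 to 6 hr and was higher afterwards. ADAR, the RNA-editing adenosine deaminase, differed less, at 69.2 and 74.6, 70.8 and 77.8, and 87.3 and 102 RPKM. OAS3 (30.1 to 54.2), UBE2L6, the ISG15-conjugating enzyme (20.1 to 47.9), PLSCR1 (41.9 to 74.8), SP100 (20.4 to 41.1), PARP9 (14.3 to 39.6) and IFI35 (7.03 to 16.9 RPKM) had their lowest value at 6 hr and their highest at 24 hr. PARP12 stayed between 8.63 and 10.9 RPKM.

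From 2 to 6 hr, 9 of 47 members were at least 2-fold lower in control cells (2.36% of all genes) and 13 of 47 in IL-13 cells (2.9%), and 0 were higher in either (0.2% and 0.522%). The member medians were -0.49 and -0.60 log2, where all genes lay at 0.10 and 0.09. In control cells the 9 were DDX58, GBP1, HERC5, IFI6, IFIH1, ISG20, MX2, RSAD2 and XAF1. XAF1 read 1.80 and 2.37 RPKM at 2 hr, 0.327 and 0.288 at 6 hr and 2.23 and 2.35 at 24 hr, so its 6 hr pair lay under all others. MX2 (chromosome 21, 42733950 to 42780869, plus strand) and GBP1 were highest at 2 hr and stayed lower at 24 hr, unlike most of the list. Both 6 hr values were under the other 4 in 36 of 49 genes (73.5%, against 17.2% of all genes). These comparisons involve the control at 2 hr, which holds brain markers and has values identical to those of the control at 6 hr; the part of either was not tested.

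**Figure D4:**
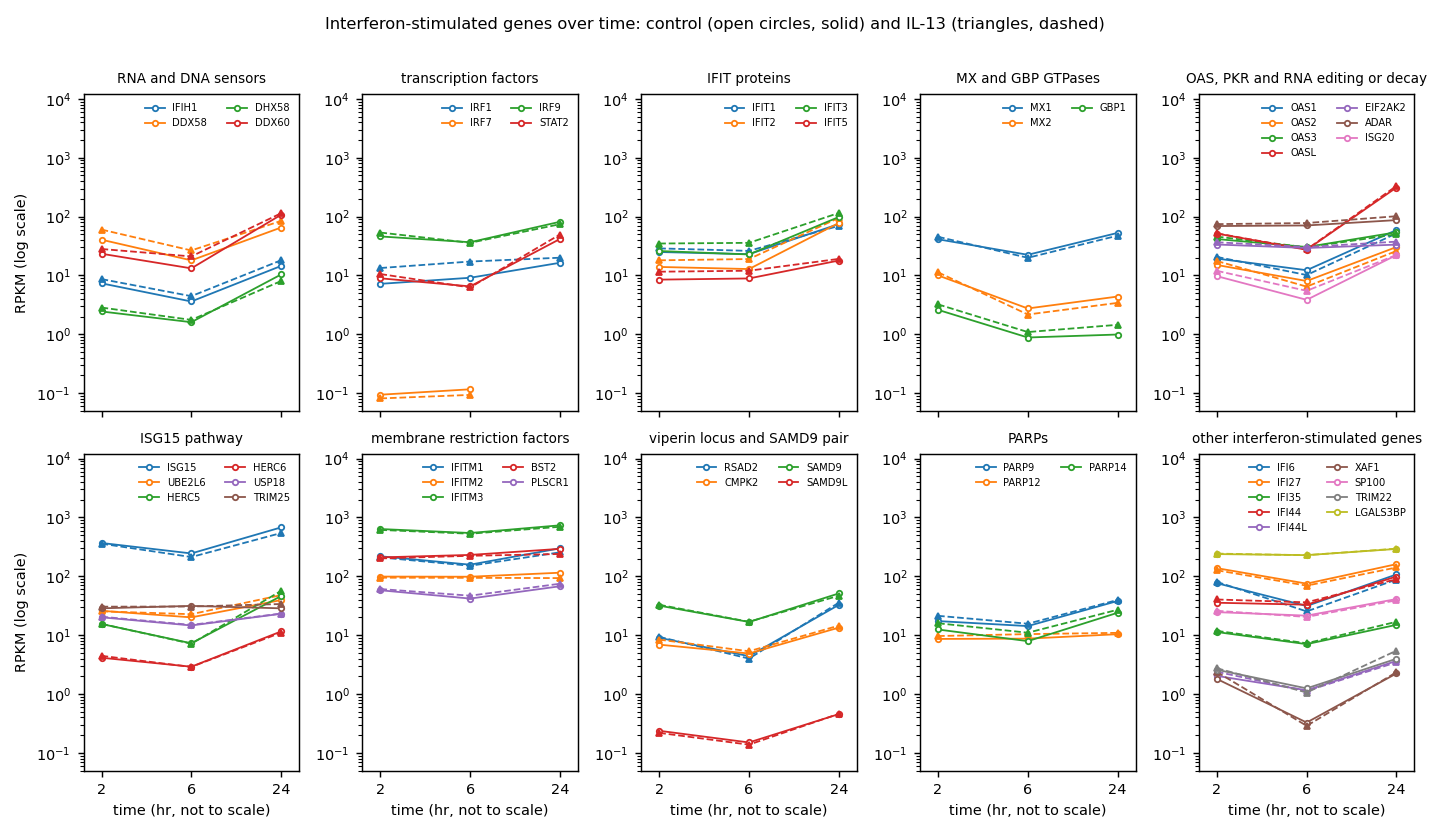
RPKM (log scale) against time for the 49 genes, 1 panel for each of 10 groups by role; solid lines with open circles are control and dashed lines with triangles IL-13 libraries, and values listed at 0 are not drawn. Most lines dip at 6 hr and end highest at 24 hr, with control and IL-13 lines of a gene close together; MX2 and GBP1 start highest.

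Of the other interferon genes on the list, 48 of 64 tested rose and 7 fell from 6 to 24 hr in limma (46.6% and 26.1% of all genes), with a median of 0.68 log2 against 0.18 over all genes. TNFSF10 (TRAIL), a death ligand, had the largest difference, 4.26 ± 0.20, from 4.11 and 4.51 RPKM to 91.4 and 78.2. Among the 7 that fell were PNPT1, a mitochondrial RNA-degrading enzyme (-1.07), and MB21D1, the DNA sensor cGAS (-0.65). Members with an ISRE core in their window had a median difference of 1.39 log2 (26 genes) and those without 1.14 (13 tested), ranges that overlap (0.16 to 3.0 and 0.00 to 2.81). For IL-13 the medians were 0.07 and 0.10 log2.

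For the histone marks, the deposited tables hold for each peak M, the authors' rescaled log2 ratio of library 1 over library 2, and A, the mean log2 level. Neither headers nor labels state which of them was treated, so no direction of IL-13 is given. Most of these genes carried active marks at 6 hr: a peak was listed at the start of 36 genes for H3K4me3, 43 for H3K9Ac and 45 for H3K27Ac. Of the 46 with at least 1 RPKM at 6 hr these are 78.3%, 93.5% and 97.8%, where 88.1%, 90.7% and 91.4% of 11958 such genes had one. IRF7, XAF1, GBP1 and SAMD9L, the 4 lowest in RNA in control cells at 6 hr, had none. Of the 45 with H3K27Ac, 9 (20%) had no H3K4me3 peak at any of their starts, against 3.40% of 10928 genes with H3K27Ac and 1 RPKM at 6 hr: DHX58, IFIT3, IFI44, IFI44L, IFITM2, ISG20, MX2, OAS2 and RSAD2. No minimum level was set for this count. The H3K27Ac level in the higher library was 7.97 for MX2, 13.0 for RSAD2 and 24.9 for IFITM2, and 60.8 to 228 for the others. Marked genes had more mark where they had more RNA; over the genes with a peak, Pearson's r of log2 level and log2 RPKM at 6 hr was 0.43, 0.46 and 0.41 (36, 43 and 45 genes, which share libraries; no test).

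Most starts differed less than 2-fold between the libraries of a mark. H3K9Ac had the most past 2-fold, 4 and 3 of 39, against 2.2% and 1.6% of all genes. For H3K4me3, with a level of at least 30 in the higher library, 1 of 28 was higher in library 1 (4.69% of all genes) and 0 in library 2 (3.38%), and the median M was 0.02 against 0.10 over all genes. The 1 was IFITM3, with M of 1.01 and levels of 90.8 and 45.1. LGALS3BP and SAMD9 (both 0.63) came next, and PARP12 (-0.92), IRF1 (-0.76) and PARP9 (-0.33) were lowest.

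For H3K9Ac, 4 of 39 were higher in library 1 (2.2% of all genes) and 3 in library 2 (1.6%), with a median M of -0.06 against 0.08. The 4 were IRF1 (M 1.59, levels 117 and 38.7), OAS1 (1.24, 40.2 and 17.0), BST2 (1.2, 787 and 343) and CMPK2 (1.1, 202 and 94.4). The 3 were IFITM2 (-1.98, levels 12.6 and 49.9), OASL (-1.32, 15.7 and 39.1) and IFIT1 (-1.13, 44.5 and 97.3). The IRF1 peak was called in library 1 alone, and a peak called in both libraries at the same start had M of 0.05 (levels 101.5 and 98.02); the further OASL peak had M of -1.03.

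For H3K27Ac, 0 of 41 were higher in library 1 (3.23% of all genes) and 3 in library 2 (1.73%), with a median M of -0.06 against 0.09. The 3 were ISG20, an RNA exonuclease (-1.49, levels 21.6 and 60.8), IFI6 (-1.32, 16.0 and 39.9) and IFI35, an interferon-induced leucine zipper protein (-1.21, 34.2 and 79.1). At IFI6 a further, weaker peak at the same start had the opposite sign, with M of 1.29 (levels 34.2 and 13.98). The highest were OAS3 (0.79), TRIM22 (0.56) and DHX58 (0.45). At OAS3 a further, weaker peak at the same start, called in library 2 alone, had M of -0.59 (levels 39.3 and 59.1). At PLSCR1 a further, weaker peak, called in library 1 alone, had M of 1.17 (levels 69.8 and 31.0), against -0.1 at the counted peak. Which library was treated may differ between the 3 tables, so signs are not compared across marks.

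**Figure D5:**
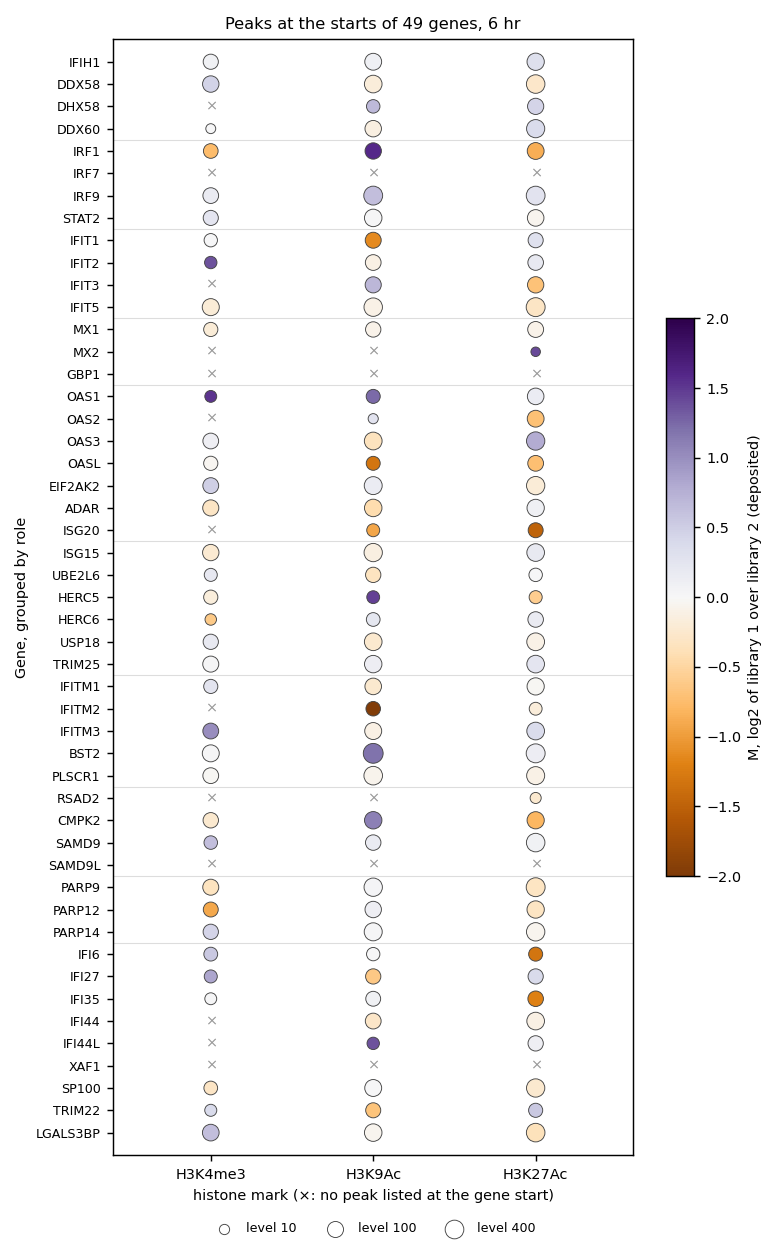
Peaks of 3 marks at the starts of the 49 genes; colour is the authors' M (log2 of library 1 over library 2), circle area grows with the log2 level in the higher library and a cross marks no listed peak. Most circles are pale; IRF1 (1.59) and IFITM2 (-1.98) for H3K9Ac and ISG20 (-1.49) for H3K27Ac are the deep ones at a level of at least 30.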

How the data were processed

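RNA values were deposited by the authors as RPKM for 23637 gene symbols, together with the authors' log2 ratio, p-value and adjusted p-value. The peak tables hold M (a rescaled log2 ratio), A (a mean log2 level) and the −log10 of a p-value, which the authors deposited under the column names of MAnorm. Per the submitters' processing notes the tools were TopHat2 2.0.9, Bowtie 1.0.0, MACS2 2.0.10.20130712 and DESeq, with hg19 (GRCh37); how reads were counted is not given in the sources used here. The libraries of a peak table are not tied to a treatment, so 6 columns of raw reads were not used, nor was the input library.

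Log2 ratios and calls were computed here on log2(RPKM + 0.1), which understates changes of low genes. Fold values and ratios printed for a gene without log2 are quotients of RPKM, with nothing added. A gene was called at 2-fold if the higher of the libraries reached 1 RPKM. limma 3.58.1 (R 4.3.3) was fitted with time and treatment as terms (2 residual degrees of freedom) over all 11953 genes that reached 1 RPKM in 3 or more libraries, with Benjamini-Hochberg adjustment; it was tested on simulated data. Its p-values measure the spread between these libraries, which may be technical. Whether IL-13 acted differently at different times could not be tested. Mark levels were computed from M and A at the start given by the RNA tables. Values in every library are given for the members highest in mean RPKM, with the largest and smallest ratios at each time or the smallest p, and for DDX58, IFIT2 and IFIH1; further members were added after their values were seen. The members and lists were chosen with earlier results of these data known. Values of some genes on the lists are not reported here. Alternatives changed the pseudocount, minimum, fold limit, scaling and times. Python 3.11.15 was used.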

Additional observations from a re-analysis of the deposited data

How the results depend on the processing

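The members past 2-fold with IL-13 stayed at 0 in both directions under another pseudocount, minimum or centring. At 1.5-fold 1 was higher at 2 hr and 3 at 6 hr. From 2 to 6 hr the count lower in control cells was 5 with a pseudocount of 1 and 21 at 1.5-fold, and 24 in IL-13 cells at 1.5-fold. From 6 to 24 hr, 1 (IRF7, listed at 0 at 24 hr) was lower in control cells without a minimum RPKM, and 1 in limma without a filter. The limma count for IL-13 over all genes was 0 and became 7 higher with a pseudocount of 1, 5 higher and 2 lower with RPKM of at least 5, 6 higher with limma-trend, and 6 higher and 1 lower without the 2 hr pair; members stayed at 0 in each of these fits. For 24 against 6 hr, members called higher ranged from 36 (centred) to 43 (limma-trend), and centring moved the genes called lower to 4820. For the marks, the members 2-fold higher in library 1 were 3 for H3K4me3 and 1 for H3K27Ac without a minimum level, and those higher in library 2 were 1 for H3K9Ac at a level of at least 60. At 1.5-fold, library 1 was higher at 3 (H3K4me3), 7 (H3K9Ac) and 1 (H3K27Ac) members and library 2 at 2, 5 and 8. IL-13 effects near 0 changed sign: HERC6 -0.0188, LGALS3BP -0.0151 and RSAD2 -0.0145 with centring; HERC6 -0.0391 and RSAD2 -0.006 without the 2 hr pair; OAS2 0.0015 without the 6 hr pair; and DHX58 0.168, HERC5 -0.0078, RSAD2 -0.0408 and TRIM22 -0.067 without the 24 hr pair. For 24 against 6 hr, BST2 became -0.0375, IFITM2 -0.154, EIF2AK2 -0.0151, PARP12 -0.101 and TRIM25 -0.258 with centring. The cause of these moves was not tested. The limma fits have time as a term and so compare the control and IL-13 libraries of a time; with 1 library a group, no block of replicates could be added. Depth is 13.6 to 14.02 megareads at 24 hr, so values under 1 RPKM, as for IRF7, rest on few reads.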
